A study of Mus musculus with 10 samples.

Results

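The insulin signalling genes described here were the rows of the gene-level count table whose symbol was Insr, Irs1, Irs2, Pik3ca, Pik3r1, Akt1, Akt2, Foxo1, Grb10 or Tbc1d4. These were 10 of 54347 gene records, and each symbol matched 1 record. The counts came from poly A RNA-seq of iBAT, the interscapular brown fat, a depot at the back of the mouse that burns fuel to make heat. All 10 mice were C57BL/6N, 12 weeks old, housed singly and exposed to 4 °C during the last 24 h before the tissue was taken, so the data hold no warm control. Of them, 5 were homozygous for a CRISPR/Cas9 deletion that takes out exon 1 of Gm15551, which encodes a lncRNA. They are called ΔGm15551 and numbered 1, 2, 4, 5 and 7 as replicates. The remaining 5 were wild type mice, numbered 2, 3, 5, 6 and 7. The animal numbers in the labels run higher for wild type replicates 5, 6 and 7. Whether that marks a litter or a batch is not given in the sources used here. The deletion was present in every tissue from the germ line on, and each library was the iBAT of a separate mouse.

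Insulin binds its receptor INSR, a tyrosine kinase that phosphorylates the docking proteins IRS1 and IRS2. These recruit PI3K, whose lipid product activates the AKT kinases, and AKT in turn holds the transcription factor FOXO1 out of the nucleus and inactivates TBC1D4, a brake on the movement of the glucose transporter GLUT4 to the cell surface. In brown fat this pathway drives glucose uptake and lipid synthesis, and insulin restrains the transcription of some of its own components, Irs2 among them.

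The libraries held 9680976 to 15771170 counts per mouse, and a two-sided exact permutation test found no difference in the totals between the genotypes beyond their spread (p = 0.389). Gm15551 had 0 counts in each of the 5 ΔGm15551 mice and 1, 2, 6, 7 and 0 counts in wild type replicates 2, 3, 5, 6 and 7. At 0, up to 3 counts in a library remain possible by counting error alone, a limit that wild type replicates 5 and 6 exceeded. Gm15551 fell under the filter on low counts and was not tested. The 9 brown adipocyte markers, Ucp1 and Adipoq among them, took 2.50% to 3.03% of the counts in every mouse. The 10 skeletal muscle markers took 0.000144% to 0.198% of the counts in ΔGm15551 and 0.000159% to 0.311% in wild type. The muscle signal thus spanned a wide range in both genotypes, and its score did not differ between them beyond their spread (two-sided exact permutation p = 0.960). In bulk tissue, fewer cells of a type and less RNA per cell cannot be told apart.

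The stretches before the transcription starts of both docking protein genes are shown first, because Irs1 and Irs2 stood at the low end and in the middle of the members' levels and were among the members that varied most between mice. RefSeq (GRCm38.p6) gave promoter windows for 9 of the 10 members. The following 250 bases lie directly upstream of the RefSeq start, at chr1:82291440-82291689 (minus strand) for Irs1 and chr8:11008930-11009179 (minus strand) for Irs2, and capitals mark the matches to CACGTG, an E-box, and to TGTTTTG, the core of the insulin response sequence. The GENCODE start of Irs2 lies further downstream than the RefSeq start used here.

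Irs1: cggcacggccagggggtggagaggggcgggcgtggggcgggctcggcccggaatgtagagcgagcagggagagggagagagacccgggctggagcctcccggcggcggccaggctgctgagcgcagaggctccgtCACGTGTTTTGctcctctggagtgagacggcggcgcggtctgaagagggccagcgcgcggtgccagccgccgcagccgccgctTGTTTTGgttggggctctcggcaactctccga

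Irs2: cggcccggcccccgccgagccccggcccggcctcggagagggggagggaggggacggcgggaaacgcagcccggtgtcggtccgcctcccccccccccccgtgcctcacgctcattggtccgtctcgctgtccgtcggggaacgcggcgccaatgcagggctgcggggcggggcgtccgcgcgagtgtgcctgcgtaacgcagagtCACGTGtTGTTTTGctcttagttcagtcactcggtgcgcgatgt

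Of all 32851 windows of this length, 6.0% held CACGTG and 5.6% held TGTTTTG on either strand, and 0.3% held both. Irs1 and Irs2 were the members with both. In Irs1 the E-box began 115 bases before the start and overlapped a TGTTTTG that began 111 bases before it, with another TGTTTTG at 32 bases. In Irs2 the E-box began 44 bases before the start and the TGTTTTG 37 bases before it. The longest runs that both windows shared were GTCACGTGTT and TGTTTTGCTC, of 10 bases each, which occurred in 23 and 21 of the 32851 windows. GTAAACA, the only form of the FOXO motif searched for under that name, was present in 3.2% of the windows and, among the members, in 1 window of Akt1. These matches describe letters, not binding.

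The first comparison asked whether deletion of Gm15551 changed the RNA of the members in cold-exposed iBAT. No member passed the test. All 10 passed the filter on low counts, and 0 of them reached an adjusted p under 0.05 in edgeR's quasi-likelihood test, where 0 of all 13732 genes tested did (0%). At an unadjusted p under 0.05 the members again numbered 0, against 219 of all genes (1.59%), 0.961% higher and 0.634% lower in ΔGm15551. The genotypes did not separate for any member, and they did for 44 of all genes (0.32%). The log2FC of ΔGm15551 over wild type was above 0 for 7 of the 10 members, against 49.7% of all genes, and its median was 0.02 for the members and -0.00092 for all genes. The median size of the log2FC, without its sign, was 0.05 for the members and 0.09 for all genes.

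**Figure D1:**
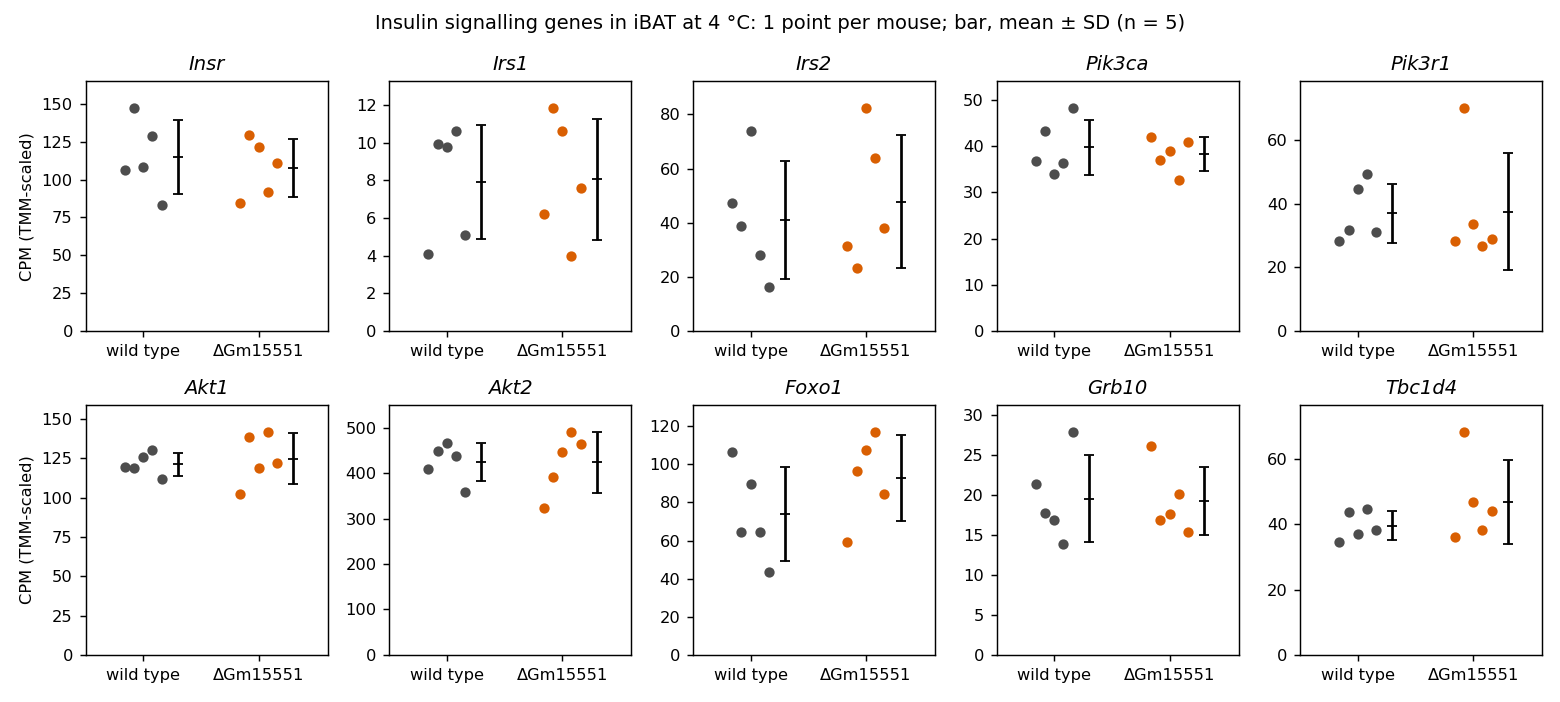
Expression of the 10 insulin signalling genes in TMM-scaled CPM (each axis from 0), 1 point per mouse, wild type in grey and ΔGm15551 in orange, with mean ± SD (n = 5) beside the points. The genotypes overlap in every panel, and Irs2 has the widest spread relative to its mean, from 16.3 to 82.4 CPM.

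The receptor Insr (chromosome 8, 3122061 to 3279617, minus strand, GRCm38) was counted at 84.5, 129, 122, 91.6 and 111 CPM in ΔGm15551 replicates 1, 2, 4, 5 and 7. CPM here stands for the read counts scaled to a common library size after TMM. The wild type replicates 2, 3, 5, 6 and 7 had 106, 147, 109, 129 and 83.2 CPM. Wild type thus held both the highest and the lowest mouse, and the log2FC was -0.09 with an SE of 0.16 (unadjusted p = 0.574 and adjusted p = 0.999738 in edgeR's test). Igf1r, the closely related receptor for insulin-like growth factor, had 15.2 ± 3.06 CPM in the ΔGm15551 mice and 15.7 ± 3.66 in the wild type mice (SD, n = 5).

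Irs1 (chromosome 1, 82233101 to 82291416, minus strand), 1 of the docking proteins, had 6.22, 11.8, 10.6, 3.98 and 7.59 CPM in the ΔGm15551 mice, in the same order. Wild type had 4.11, 9.91, 9.78, 10.6 and 5.12 CPM. Both genotypes held mice near 4 CPM and mice above 10 CPM, and the log2FC was 0.02 (SE 0.31). Irs1 rested on the fewest counts of the members, 46 to 167 per mouse. Its exons overlap those of Gm9747 on the opposite strand, which had 78 to 201 counts per mouse. The sources used here do not say whether reads were counted by strand, so the level of Irs1 is uncertain to that extent.

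Irs2 (chromosome 8, 10984681 to 11008458, minus strand), the docking protein whose transcription insulin restrains, had 31.5, 23.2, 82.4, 64.0 and 37.9 CPM in ΔGm15551. In wild type it had 47.4, 38.9, 73.8, 28.2 and 16.3 CPM. ΔGm15551 replicate 4, wild type replicate 5 and ΔGm15551 replicate 5 stood highest and wild type replicate 7 lowest, so that both genotypes spread over most of the range. The log2FC of 0.22 had an SE of 0.43, the largest of the members, and the sign turned to -0.07 without ΔGm15551 replicate 4.

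PI3K consists of a catalytic and a regulatory subunit. The catalytic subunit gene Pik3ca (chromosome 3, 32397671 to 32468486, plus strand) lay between 32.7 and 41.9 CPM in ΔGm15551 and between 33.9 and 48.2 CPM in wild type, with a log2FC of -0.05 (SE 0.12). The regulatory subunit gene Pik3r1 (chromosome 13, 101680563 to 101768217, minus strand) had 28.4, 70.0, 33.6, 26.7 and 28.8 CPM in ΔGm15551 replicates 1, 2, 4, 5 and 7. Wild type replicates 2, 3, 5, 6 and 7 had 28.1, 31.8, 44.7, 49.2 and 31.0 CPM. ΔGm15551 replicate 2 stood far above the other mice of its genotype. The log2FC of Pik3r1 was 0.02 (SE 0.27) with that mouse and -0.34 without it, and neither value passed the test.

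Of the AKT kinases, Akt1 (chromosome 12, 112653821 to 112674884, minus strand) ranged from 102 to 142 CPM in ΔGm15551 and from 112 to 130 CPM in wild type, with a log2FC of 0.04 (SE 0.11). Akt2 (chromosome 7, 27591552 to 27640826, plus strand), the kinase most tied to glucose uptake, had 324, 391, 447, 491 and 465 CPM in ΔGm15551 and 408, 448, 465, 439 and 358 CPM in wild type. Both means came to 424 CPM, with a log2FC of 0.0002 (SE 0.13). For Akt1 the means were 125 (ΔGm15551) and 121 CPM (wild type). The ΔGm15551 mice had the larger SD (n = 5), 16.2 against 7.12 CPM for Akt1 and 66.7 against 42.0 CPM for Akt2. Replicate 1 of ΔGm15551 was the lowest mouse for both genes. Among the other ΔGm15551 mice Akt2 spanned 391 to 491 CPM, no wider than the wild type range of 358 to 465. The larger SD of Akt2 thus rested on that mouse. Whether the spreads differed between genotypes was not tested.

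Foxo1 (chromosome 3, 52268336 to 52353221, plus strand), the transcription factor that AKT keeps out of the nucleus, had the largest log2FC of the members. Its values were 59.1, 96.3, 107, 117 and 84.2 CPM in ΔGm15551 and 107, 64.3, 89.7, 64.5 and 43.3 CPM in wild type. In ΔGm15551, 4 of 5 mice were above 80 CPM, and in wild type 2 of 5, so the genotypes overlapped. The log2FC was 0.33 (SE 0.23, unadjusted p = 0.173, adjusted p = 0.999738 in edgeR's test). Without wild type replicate 2 it was 0.50 and the unadjusted p of edgeR's test was 0.0451, still with an adjusted p of 0.999878. Without wild type replicates 5, 6 and 7, whose animal numbers in the labels run higher, it was 0.12 and no longer the largest of the members.

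Grb10 (chromosome 11, 11930508 to 12038683, minus strand) encodes an adaptor that binds the activated receptor and inhibits it. It had 26.2, 16.9, 17.7, 20.2 and 15.4 CPM in ΔGm15551 and 21.4, 17.8, 16.8, 13.8 and 28.0 CPM in wild type, with a log2FC of -0.02 (SE 0.19). The highest and the lowest mouse were both wild type. Tbc1d4 (chromosome 14, 101442360 to 101609191, minus strand), the AKT target that holds back GLUT4, had 36.2, 68.4, 46.8, 38.1 and 44.0 CPM in ΔGm15551. The wild type mice had 34.6, 43.7, 37.0, 44.6 and 38.1 CPM. Its log2FC was 0.24 (SE 0.16) and had the smallest unadjusted p of the members, 0.167 by edgeR's test. Without ΔGm15551 replicate 2 it was 0.06. Slc2a4, the gene of GLUT4 itself, stood at 580 ± 85.9 CPM in ΔGm15551 against 627 ± 94.3 in wild type (SD, n = 5), a log2FC of -0.11 (SE 0.14).

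A p that misses the threshold does not show that levels were alike, so the size of difference that the data still allow was read from 95% confidence intervals of limma-voom. For 6 of the 10 members the interval lay within a 1.5-fold change in either direction, as it did for 66.2% of all genes. These were Insr (-0.44 to 0.27 on the log2 scale), Pik3ca (-0.30 to 0.21), Akt1 (-0.20 to 0.27), Akt2 (-0.29 to 0.28), Grb10 (-0.40 to 0.42) and Tbc1d4 (-0.14 to 0.55). Pik3r1 (-0.60 to 0.49), Irs1 (-0.72 to 0.69) and Foxo1 (-0.15 to 0.88) lay within a 2-fold change. For Irs2 the interval ran from -0.74 to 1.22, so that a change of over 2-fold upwards was not excluded at this spread.

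**Figure D2:**
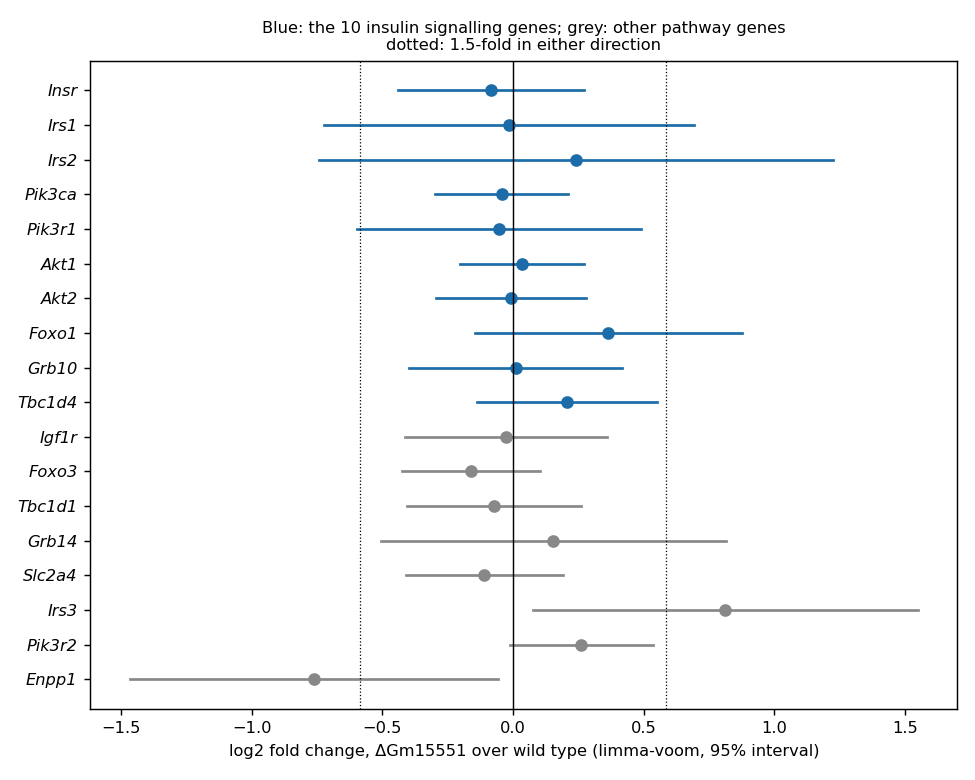
log2 fold change of ΔGm15551 over wild type with 95% confidence intervals from limma-voom (n = 5 mice per genotype), the 10 members in blue and 8 other genes of the pathway in grey, with dotted lines at a 1.5-fold change. The intervals of all 10 members include 0, the narrowest being Akt1 and Pik3ca and the widest Irs2, and those of Irs3 and Enpp1 do not include 0.

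The members differed in how much they varied between mice. Irs2 had the widest spread, with a coefficient of variation (CV, SD over mean, n = 10) of 50.0% and a highest mouse at 5.06 times the lowest. Of the 500 genes nearest to it in mean count, 0% had a larger SD of log2 CPM within genotypes. Irs1 and Pik3r1 each had a CV of 36.9% and Foxo1 of 29.4%, and 2.8%, 2.8% and 4.6% of their nearest genes varied more. Grb10 (23.7%) and Tbc1d4 (22.7%) were intermediate. Insr (18.9%), Akt2 (12.4%), Pik3ca (12.0%) and Akt1 (9.71%) varied least, and 77.2% of the genes nearest to Akt1 varied more than it did. The spread of 2 members rested on ΔGm15551 replicate 2. Without it the CV was 23.6% for Pik3r1 and 11.0% for Tbc1d4, which then lay below Akt2 (12.7%) and Pik3ca (12.5%). Irs2, Irs1 and Foxo1 had the highest CV of the members without that mouse.

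**Figure D3:**
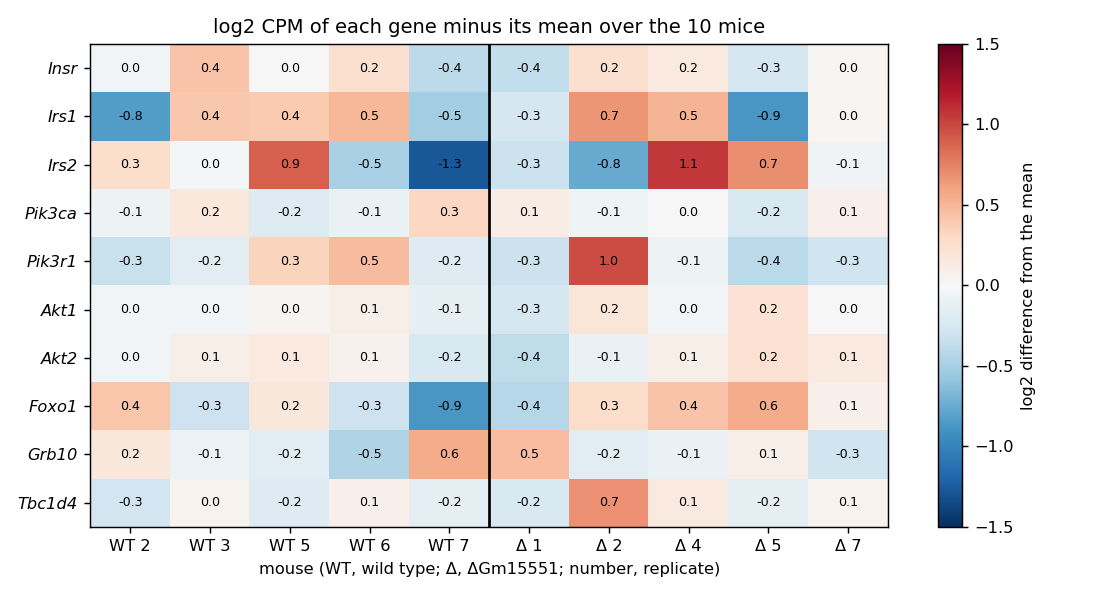
log2 CPM of each member minus its mean over the 10 mice, in colour and as numbers, with wild type (WT) left of the black line and ΔGm15551 (Δ) right of it. Irs2 ranges from -1.3 in wild type replicate 7 to 1.1 in ΔGm15551 replicate 4, whereas Akt1 stays within 0.3 of its mean.

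The next comparison placed the members on a common scale, CPM per kb of exon, which allows levels to be compared between genes. Akt2 was the highest, with 59.4 ± 7.37 CPM per kb (SD, n = 10), followed by Akt1 with 30.0 ± 2.91. A middle group was formed by Foxo1 (9.61 ± 2.82), Insr (8.09 ± 1.53), Irs2 (7.02 ± 3.51) and Tbc1d4 (5.62 ± 1.28). Pik3ca (4.29 ± 0.514), Pik3r1 (3.69 ± 1.36) and Grb10 (2.14 ± 0.506) were lower, and Irs1 was the lowest with 0.872 ± 0.322 CPM per kb.

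Neighbours in this order were compared within mice by exact sign-flip permutation tests (two-sided, 9 pairs, Benjamini-Hochberg adjusted). Akt2 exceeded Akt1 by 1.97-fold and Akt1 exceeded Foxo1 by 3.25-fold, each in 10 of 10 mice (adjusted p = 0.00586, permutation). Tbc1d4 exceeded Pik3ca by 1.29-fold and Pik3r1 exceeded Grb10 by 1.68-fold, each in 9 of 10 mice (adjusted p = 0.0105, permutation). Grb10 exceeded Irs1 by 2.57-fold in 10 of 10 mice (adjusted p = 0.00586, permutation). Foxo1 and Insr (adjusted p = 0.220), Insr and Irs2 (0.220), Irs2 and Tbc1d4 (0.545) and Pik3ca and Pik3r1 (0.188) did not differ beyond the spread over mice in these permutation tests. With the longest transcript as the length, 4 pairs differed in place of 5, and Foxo1 and Insr as well as Pik3ca and Pik3r1 changed places. Grb10 then followed Pik3ca, which exceeded it in 6 of 10 mice (adjusted p = 0.0809, permutation), so that this step no longer passed. These tests ordered the genes by mean log2 level, in which Tbc1d4 also came before Irs2 with this length, in 6 of 10 mice (adjusted p = 0.809, permutation), whereas their mean CPM per kb kept its order.

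**Figure D4:**
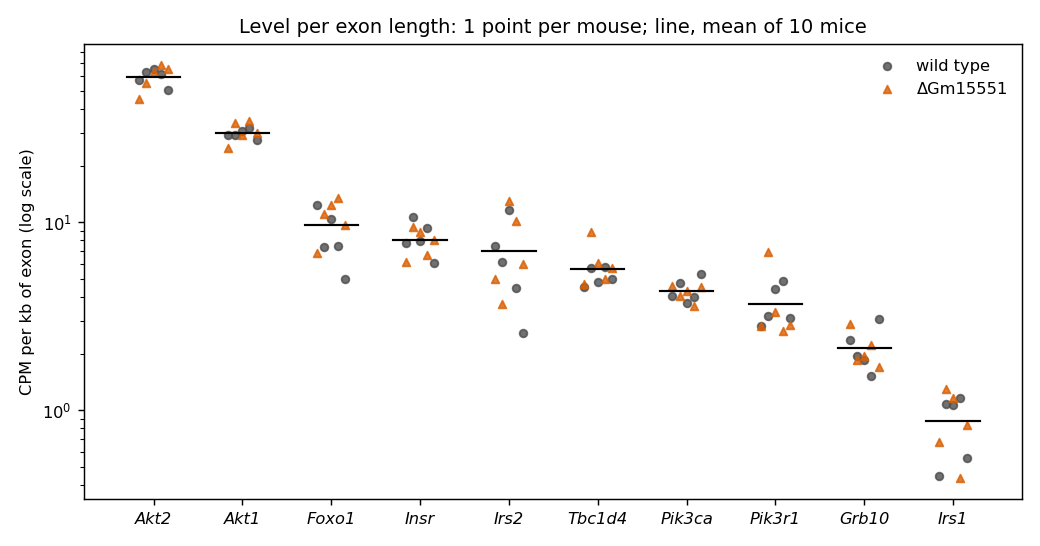
CPM per kb of exon for each member on a log axis, 1 point per mouse (wild type grey circles, ΔGm15551 orange triangles) and a line at the mean of the 10 mice. Akt2 and Akt1 lie above the other members, Foxo1 to Pik3r1 overlap with their neighbours, and Irs1 lies lowest at 0.872.

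Ratios between related genes within a mouse do not depend on the scaling of the libraries. For 7 such ratios an exact permutation test set the 5 ΔGm15551 mice against the 5 wild type mice, and 0 passed after adjustment. The ratio of Irs2 to Irs1 counts was the most variable, from 1.96 in ΔGm15551 replicate 2 to 16.1 in ΔGm15551 replicate 5, an 8.19-fold range. The ratio of Akt2 to Akt1 was the most even, from 2.82 to 3.81, a 1.35-fold range. The ratio of Foxo1 to Foxo3, its paralog, was 6.17, 8.39, 10.1, 10.4 and 7.81 in ΔGm15551 and 8.53, 4.95, 7.18, 4.99 and 4.75 in wild type. It was higher in ΔGm15551 by 0.51 on the log2 scale (exact permutation p = 0.0556, adjusted p = 0.389), and the groups overlapped. For Pik3r1 to Pik3ca, Insr to Igf1r, Grb10 to Grb14, Tbc1d4 to Tbc1d1, Irs2 to Irs1 and Akt2 to Akt1 the adjusted p of the permutation tests was 0.992.

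Whether the members moved together over the 10 mice was examined for all 45 pairs, with CPM sharing the depth and scaling of each library. By Pearson's r, 25 pairs were positive and 20 negative, and 0 passed after adjustment (permutation test with 100000 resamples). The r of largest size were negative, with r = -0.79 and rho = -0.67 for Insr and Grb10 and r = -0.78 and rho = -0.72 for Pik3ca and Foxo1 (adjusted permutation p = 0.106 for r and 0.180 for rho). The first was r = -0.83 and the second r = -0.48 without the 2 farthest mice. Irs1 and Pik3r1 had the highest rank correlation (rho = 0.90, adjusted permutation p = 0.0342) with r = 0.72 (adjusted permutation p = 0.106) and r = 0.68 without the 2 mice farthest from the median. Of all genes, 7.57% had an r with Irs1 of that size or larger. Irs2 and Foxo1 had r = 0.74 and rho = 0.67 (adjusted permutation p = 0.106 and 0.180), and r fell to 0.49 without the 2 farthest mice. Pik3r1 and Tbc1d4 had r = 0.76, rho = 0.70 and adjusted permutation p = 0.106 and 0.180, and r was 0.08 without the 2 farthest mice, so that this relation rested on those mice.

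By the naming rule, the 2 genes of 13731 whose log2 CPM had the highest Pearson's r with each member over the 10 mice are named as a description. Picking the largest of so many values over few mice raises r by itself, and none was tested. For Insr these were Tmem135 (r = 0.98) and Ebag9 (r = 0.98), for Irs1 Scaf8 (0.95) and Bche (0.94), and for Irs2 Dcaf13 (0.93) and Mfsd2a (0.93). Pik3ca was most like Pgm2l1 (0.95) and Dennd5b (0.94), and Pik3r1 most like H1f2 (r = 0.95, rho = 0.85) and Mmp28 (r = 0.92, rho = 0.72). Akt1 was most like Ruvbl2 (0.97) and Kars (0.96), Akt2 most like Ctsd (0.97) and Por (0.95), and Foxo1 most like Lrp5 (0.95) and Radil (0.94). For Grb10 the genes were Prss23 (0.98) and Gxylt2 (0.97), and for Tbc1d4 Inpp5b (0.95) and Angel2 (0.95).

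Of 60 relations between the 10 members and the summed share of 6 marker lists, 1 passed after adjustment, that of Grb10 with the endothelial markers. Over the 10 mice, Grb10 and the share of the 4 endothelial markers Pecam1, Cdh5, Kdr and Tek had r = 0.93 (adjusted permutation p = 0.0030) and rho = 0.92 (adjusted permutation p = 0.0306), with r = 0.93 without the 2 farthest mice. Each marker alone had r of 0.81 to 0.95 with Grb10, so that all 4 of 4 moved with it. ΔGm15551 replicates 1 and 5 and wild type replicates 2 and 7 had endothelial shares of at least 0.105% and Grb10 of at least 20.2 CPM. In the other 6 mice the share was at most 0.0841% and Grb10 at most 17.8 CPM. Both sets held mice of both genotypes, and the endothelial share ranged from 0.0722% to 0.123% in ΔGm15551 and from 0.0643% to 0.111% in wild type. Within the 6 mice with the lower share, a subset chosen after seeing the values, r was 0.80 and rho 0.71 (exact permutation p = 0.0597 for r). Of all 13732 genes, 35 (0.255%) had r with the endothelial share at or above that of Grb10, a count in which the markers themselves can fall, and 41.1% had an r of 0.6 or more in size. Grb10 also had a positive r with the shares of macrophage (r = 0.76, rho = 0.73), red blood cell (r = 0.75, rho = 0.55) and skeletal muscle markers (r = 0.72, rho = 0.64), each with an adjusted permutation p of 0.151 for r, and of Schwann cell markers (r = 0.61, rho = 0.53, adjusted permutation p = 0.287 for r). Whether the endothelial relation differed from these was not tested. The part of RNA from these cells in the level of Grb10 was not tested. Insr (r = -0.83, rho = -0.78) and Irs1 (r = -0.82, rho = -0.71) ran the other way, with adjusted permutation p of 0.117 and 0.131 for r and of 0.209 and 0.301 for rho.

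**Figure D5:**
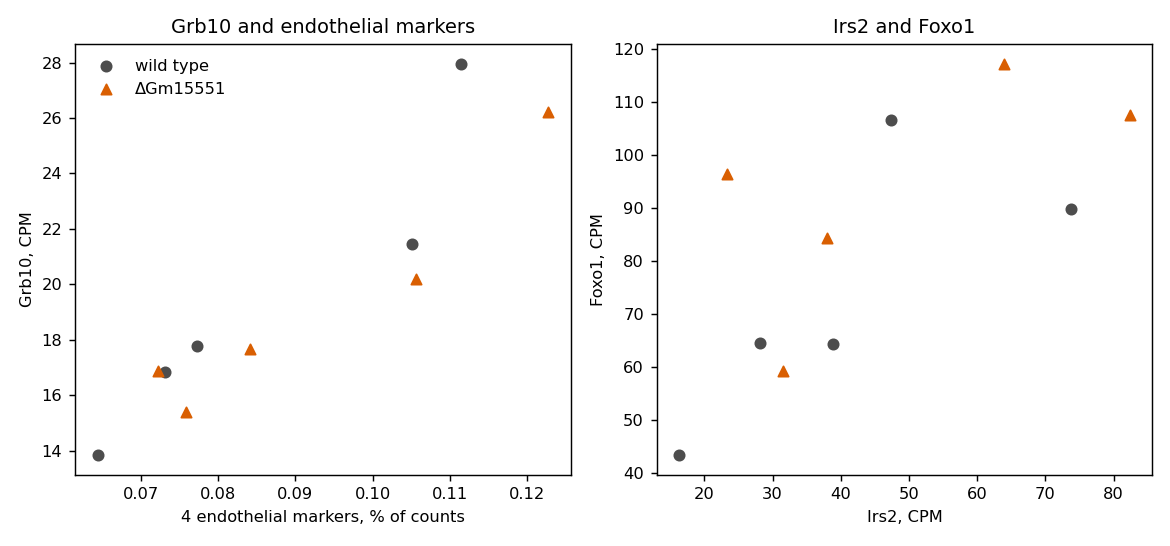
Left, Grb10 in CPM against the share of counts on 4 endothelial markers in percent, and right, Foxo1 against Irs2 in CPM, 1 point per mouse (wild type grey circles, ΔGm15551 orange triangles, axes not from 0). The 4 mice with endothelial shares of at least 0.105% have the highest Grb10, from 20.2 CPM up, and both genotypes are found at both ends of each panel.

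Because the libraries differed in skeletal muscle RNA, each member's slope on the muscle score (the mean log2 CPM of 10 muscle markers) was tested over all genes with genotype in the model. 0 of the 10 members passed, against 98 of all genes (0.714%), 92 rising (0.67%) and 6 falling (0.0437%). The markers that make up the score can themselves fall among the rising genes. Grb10 had the steepest rise relative to its error, 0.06 log2 units per unit of score (SE 0.02, adjusted p = 0.197), and Insr a slope of -0.04 (SE 0.02, adjusted p = 0.230). Without ΔGm15551 replicate 4, 2710 of all genes passed (19.5%), and with them 2 of the 10 members, a share near that of all genes. These were Insr (slope -0.07, adjusted p = 0.00723) and Grb10 (slope 0.08, adjusted p = 0.00995).

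The other genes of the pathway were taken as a list of 59, of which 54 passed the filter on low counts. Irs4, Socs1, Foxo6 and Igfbp1 were among those that did not. Of the 54, 0 passed the genotype test in either direction, 23 had a log2FC above 0 and 31 below, and the median was -0.03. The 8 genes of the mTOR complexes and their regulators lay between -0.09 and 0.08 on the log2 scale, and the 6 further kinases between -0.11 and 0.05. In edgeR's test Irs3 alone of the 54 had an unadjusted p under 0.05, against 1.59% of all genes. In DESeq2 and in limma-voom 2 of the 54 did, against 228 and 237 of all 13732 genes. Irs3, a further docking protein of rodent fat cells, had 5.27, 17.4, 6.38, 9.87 and 9.30 CPM in ΔGm15551 and 5.18, 5.47, 3.57, 8.70 and 3.18 CPM in wild type. The genotypes overlapped, and the log2FC was 0.87 (SE 0.33, unadjusted p = 0.0212, adjusted p = 0.999738 in edgeR's test). Without ΔGm15551 replicate 2, its highest mouse, the log2FC was 0.55, and without wild type replicate 6 it was 1.14. The number of pathway genes at an unadjusted p under 0.05 in edgeR's test was 0 to 4 when a mouse was left out. It was 0 without ΔGm15551 replicate 2 or wild type replicate 5, against 223 of 13933 and 196 of 13907 genes. It was 4 without ΔGm15551 replicate 1 or 7, against 418 of 13820 and 256 of 13948 genes. Pik3r2, another regulatory subunit of PI3K, reached 0.26 (SE 0.13, unadjusted p = 0.0564 in edgeR's test) on the log2 scale, and Enpp1, a membrane enzyme that inhibits the receptor, reached -0.70 (SE 0.34, unadjusted p = 0.0626 in edgeR's test) at 0.916 ± 0.490 against 1.51 ± 0.404 CPM (SD, n = 5). Enpp1 was at -1.07 without ΔGm15551 replicate 1. The ratio partners Grb14 (0.14), Tbc1d1 (-0.07), Foxo3 (-0.16) and Igf1r (-0.05) had smaller log2FC. On the muscle score, 2 of the 54 fell, against 0.0437% of all genes. These were Irs3 (slope -0.13, adjusted p = 0.0314) and Grb14, a further inhibitor of the receptor (slope -0.11, adjusted p = 0.0342). Neither call held in every fit, although the slopes kept their sign, from -0.16 to -0.11 for Irs3 and from -0.14 to -0.09 for Grb14 when a mouse was left out. In edgeR's test Irs3 no longer passed without ΔGm15551 replicate 1 or 2 or wild type replicate 5, 6 or 7, where its adjusted p was 0.0551 to 0.157, nor with no genotype term (0.164) or with library totals only (0.0548). Grb14 no longer passed without ΔGm15551 replicate 1, 2 or 7 or wild type replicate 3, 6 or 7, with an adjusted p of 0.0728 to 0.255 in the same test. Leaving out a mouse gave 0 to 3 pathway genes that passed, against 50 to 121 of all genes. The exception was 20 without ΔGm15551 replicate 4, where 19.5% of all genes passed.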

How the data were processed

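RNA was measured in iBAT of 10 mice. Per the labels and the study's methods, reads were filtered with cutadapt and quantified with salmon on GENCODE M22 (GRCm38), with no versions given. The values deposited by the authors were estimated counts per gene (expected counts) in whole numbers. How transcripts were summed is not given in the sources used here. Genes were filtered by filterByExpr (minimum count 10, minimum total 15), which left 13732, scaled by TMM and tested by edgeR 4.0.16 (glmQLFit, robust; glmQLFTest) in R 4.3.3 with genotype as the only term, with Benjamini-Hochberg adjustment over all genes tested. limma 3.58.1 (voom) gave the intervals, and DESeq2 1.42.0 was an alternative, beside other scalings and filters, a muscle covariate, a replicate block and leaving out mice. log2 CPM had a prior count of 2. Positions and exon lengths came from GENCODE M21 on the same build, which held 99.5% of the gene IDs. Pairs of libraries within a genotype differed beyond sampling noise (smallest chi-square per degree of freedom 11.5).

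The members, gene lists and tests were chosen with earlier results of these data known. The genes named were the members, Gm15551, the ratio partners and Slc2a4, the 3 other pathway genes with the smallest p where none passed, the 2 genes most like each member, and members called on the muscle score. Cell type markers, a gene overlapping Irs1 and pathway genes under the filter are named outside this rule. Relations across mice, the share of nearby genes that vary more and the motif searches were chosen later. The edgeR fits were tested on counts simulated with the same dispersion of 0.052 for all genes, so the spread of the most variable members was not represented. The permutation test of relations was tested on simulated unrelated values. The exact permutation tests of levels and ratios were checked on fixed values with a known p. Depth limits Irs1 most, with 46 counts in the lowest mouse.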

Additional observations from a re-analysis of the deposited data

Results flagged for a closer look

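In 34 groups of 5 mice searched for a single mouse far from the others (Dixon's ratio above 0.71), 3 were found where chance gives about 1.7 at 1 in 20. All 3 concerned ΔGm15551 replicate 2. Pik3r1 was at 70.0 CPM in this mouse and at 26.7 to 33.6 CPM in the other ΔGm15551 mice. Its ratio of Pik3r1 to Pik3ca counts was 1.89, against 0.678 to 0.861. Its ratio of Tbc1d4 to Tbc1d1 counts was 5.96, against 2.03 to 2.96. The first 2 share the Pik3r1 counts and are not independent. The muscle markers took 0.000144% of the counts of this mouse, the lowest share of the 10. ΔGm15551 replicate 7 had nearly the same share, 0.000145%, with Pik3r1 at 28.8 CPM and Tbc1d4 at 44.0 CPM, within the range of the other ΔGm15551 mice. Wild type replicates 6 and 3 had shares of 0.000159% and 0.000263%. Their Pik3r1 was at 49.2 and 31.8 CPM and their Tbc1d4 at 44.6 and 43.7 CPM. A relation of these values to muscle RNA was not tested here.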

How the results depend on the processing

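Under all 21 alternatives of the genotype test 0 members passed, and their smallest adjusted p lay between 0.835121 and 0.999995. By DESeq2's Wald test, too, 0 of all genes passed, and 228 had an unadjusted p under 0.05. The number of genes under this unadjusted p was 219 of 13732 tested in the main analysis and 869 of 30984 with no filter. It was 552 of 13796 in the 6 mice with shared replicate numbers. Without ΔGm15551 replicate 1 it was 418 of 13820, and without wild type replicate 7 it was 404 of 13887. Foxo1 and Tbc1d4 kept a log2FC above 0 under all alternatives, with 0.19 to 0.50 and 0.06 to 0.32 when a mouse was left out, but Foxo1 was 0.12 without the 3 wild type mice with higher animal numbers in the labels.

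Signs turned for 8 members, Irs2 with its log2FC of 0.22 among them. limma-voom gave Irs1 -0.014, Pik3r1 -0.052, Akt2 -0.0066 and Grb10 0.010. Akt2 was -0.0052 with DESeq2 size factors, -0.0053 with DESeq2, -0.0014 with at least 1 CPM in 5 mice and -0.013 without these 3 wild type mice. Pik3r1 was -0.0024 with the muscle score as a covariate. Leaving out 1 mouse gave ranges of -0.19 to 0.011 for Insr, -0.16 to 0.19 for Irs1, -0.066 to 0.55 for Irs2, -0.10 to 0.029 for Pik3ca, -0.34 to 0.14 for Pik3r1, -0.011 to 0.11 for Akt1, -0.062 to 0.083 for Akt2 and -0.15 to 0.14 for Grb10. The log2 ratio differences ranged from -0.15 to 0.61 for Irs2 to Irs1, -0.086 to 0.022 for Akt2 to Akt1, -0.27 to 0.14 for Pik3r1 to Pik3ca, -0.26 to 0.13 for Insr to Igf1r and -0.46 to 0.22 for Grb10 to Grb14. Without the 3 wild type mice, Irs2 to Irs1 was -0.23 and Pik3r1 to Pik3ca 0.28. The cause was not tested. On the muscle score, 0 to 2 members passed when a mouse was left out, 2 only without ΔGm15551 replicate 4, where 19.5% of all genes passed. With wild type mice only, 0 of the 9 neighbours in level differed, since 5 mice allow no p below 0.0625.

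Replicate numbers 2, 5 and 7 occurred in both genotypes. Between mice sharing a number, the deviations from the genotype mean over all genes had r = -0.07, 0.05 and -0.39. Mice with different numbers were not compared in this way, so these values cannot exclude pairing. The main analysis did not pair the mice. With the replicate block in these 6 mice, 0 members passed, 397 genes had an unadjusted p under 0.05, and the log2FC was 0.15 for Insr and -0.030 for Irs2. Without the block in the same mice they were 0.15 and -0.15. In these 6 mice, with and without the block, Grb10 was -0.31 and -0.33, Tbc1d4 0.41 and 0.46, Irs3 1.59 and 1.61 and Enpp1 -1.30 and -1.29. Of the pathway genes, 5 and 6 then had an unadjusted p under 0.05 in edgeR's test, against 397 and 552 of all 13796 genes. With the muscle score as a covariate in the 10 mice, 4 did, against 273 of all 13732 genes.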
